A study of Homo sapiens with 16 samples.

Results

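The receptor tyrosine kinases EGFR and EPHA2 and 5 genes for EGFR ligands (TGFA, HBEGF, AREG, EREG and BTC) were examined for binding of CTCF and p53, as mapped by ChIP-seq (sequencing of immunoprecipitated chromatin). Members were the peaks of any of the 8 deposited lists that lay within 50 kb of the body of 1 of these 7 genes, on hg19 with GENCODE gene models. This gave 81 of 76863 peaks. Peaks from the 4 libraries of a factor were joined into 1 site wherever they shared at least 1 bp, and 23 of 29064 CTCF sites and 7 of 2980 p53 sites were at the loci. The windows of AREG and EREG overlap each other, so the 7 genes formed 6 separate regions.

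The study mapped both factors in MCF10A, a non-tumorigenic human mammary epithelial cell line, and in the same line carrying the G12V form of the oncogene HRAS from a lentiviral vector under drug selection (called G12V). Each factor and cell type had 2 replicate libraries with a peak list each, described in the methods as biological, and the 8 inputs served as controls for peak calling. All cells, parental and G12V, grew in medium that contained EGF. For p53, both cell types were treated with Nutlin, a small molecule that frees p53 from its inhibitor MDM2, before fixation, so no p53 library shows untreated cells, and the labels give this treatment for the p53 samples alone. The peak lists hold no RNA, so neither the expression of the 7 genes nor that of the HRAS transgene could be checked.

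EGFR is the receptor that mammary epithelial cells use to sense EGF-like growth factors. Its ligands are made as membrane-anchored precursors that proteases release from the cell surface, and the receptor then signals through adaptor proteins to RAS proteins. HRAS is a RAS protein, and the G12V change keeps HRAS itself in its active state. EPHA2, a receptor for ephrin-A ligands, is expressed in many epithelial tumours. p53 binds a pair of similar half-sites near genes it activates, and CTCF binds a longer asymmetric motif at insulators and at the anchors of chromatin loops.

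The lists differed in length within each cell type. They held 11346 to 27678 CTCF peaks and 477 to 2619 p53 peaks, at calling depths recovered from the lists of 10.7 to 13.5 and 9.26 to 23.9 M reads (M is 1e6). The shortest and shallowest p53 list was G12V replicate 1, whose peak names alone carry the word "old". At the 332 p53 sites called in all 4 libraries, its fold enrichment was a median of 0.433 times that of G12V replicate 2. Each site is therefore described by its rank percentile, the place of its peak in its own list by −log10 q (100 is the strongest), beside the fold enrichment over local background that the authors' caller gave. A site without a peak in a list was not detected there, and is not shown to be unbound. The sites themselves lay in sequence that reads of the study's length match at 1 place (100% of start positions at each p53 site and at least 98.7% at each CTCF site).

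**Figure D1:**
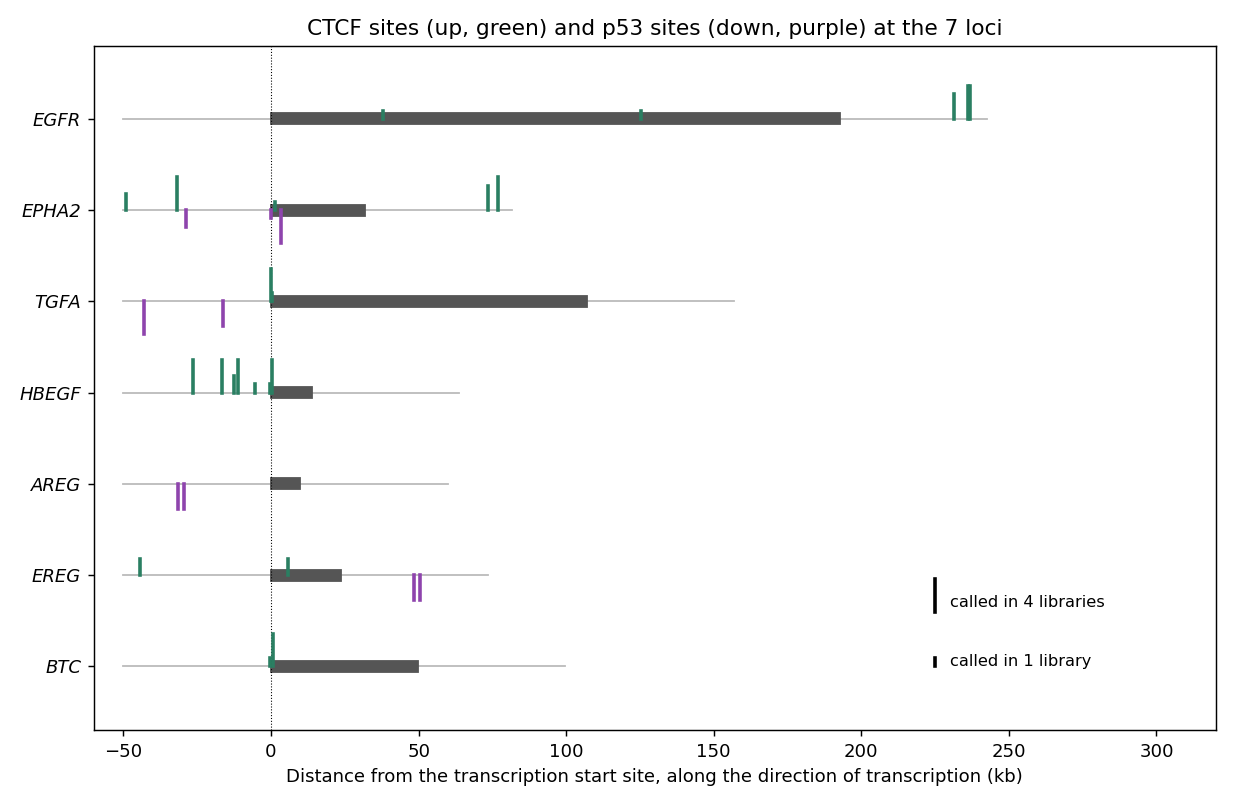
Position of the 23 CTCF sites (green, upward) and 7 p53 sites (purple, downward) along the 7 genes. The horizontal axis is the distance of the summit from the transcription start site in kb, positive in the direction of transcription, grey bars are gene bodies, and the height of each tick is the number of libraries (1 to 4) with a peak. The AREG and EREG rows show the same 2 p53 sites, and AREG has no CTCF tick.

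p53 sites were found at TGFA, EPHA2 and between EREG and AREG, and none at EGFR, HBEGF or BTC. Thus 4 of the 7 genes had a p53 site within 50 kb, against 18.9% of the 20098 protein-coding genes, although AREG and EREG count the same 2 sites. A p53 site called in all 4 libraries was near 2 genes, TGFA and EPHA2, against 2.41% of genes. Of the 7 p53 sites, 2 were called in all 4 libraries (11.1% of all p53 sites), 1 in a single library (48.5%), and none was specific for a cell type, that is, called in both libraries of one and neither of the other (2.18% of all p53 sites for MCF10A and 1.41% for G12V). These counts moved with single libraries: without G12V replicate 1, 4 of 7 sites were called in all remaining libraries (25.2% of all p53 sites) and 1 was G12V-specific (1190 of all 2976), without MCF10A replicate 1 there was also 1 G12V-specific site (5.0%), and without G12V replicate 2 there were 2 MCF10A-specific ones of 6 (26.4%). No p53 site overlapped a CTCF site. The nearest pair, at EPHA2, was 946 bp apart, and both of its sites were called in G12V replicate 2 alone.

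TGFA, which encodes transforming growth factor alpha, a classical EGFR ligand, had the strongest p53 peak of all 7 loci. It lay at chr2:70823537-70824708 (hg19), in intergenic sequence 42915 bp upstream of the TGFA start site, which was also the nearest start site of a protein-coding gene. The fold enrichment was 41.4 and 20.8 in MCF10A replicates 1 and 2 and 19.5 and 66.5 in G12V replicates 1 and 2. The peak took rank 15 of 1718 and 34 of 885 in the MCF10A lists, and rank 34 of 477 and 10 of 2619 in the G12V lists. It was therefore among the strongest p53 sites of every library, and the 2 cell types overlapped. The rank percentile was 97.7 in MCF10A and 96.4 in G12V on average, a difference of -1.36 (exact two-sided permutation test, p = 1). The summits of the 4 libraries fell within 28 bp of each other.

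The sequence at this summit held a full p53 motif without a mismatch, 8 bp from the summit. A second p53 site lay between it and the gene, 16088 bp upstream of the start site, at chr2:70797166-70797596, and its motif had 3 mismatches outside the invariant core bases. Both are shown 5′ to 3′ on the plus strand of GRCh37 because the comparison of these 2 sites is one of motif and rank, with the motif in capitals:
TGFA, 42.9 kb upstream, chr2:70824202-70824261: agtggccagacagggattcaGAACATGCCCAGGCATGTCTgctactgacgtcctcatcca
TGFA, 16.1 kb upstream, chr2:70797390-70797449: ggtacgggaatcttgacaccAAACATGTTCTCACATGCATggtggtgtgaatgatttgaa

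The nearer TGFA site was weaker and was not called in MCF10A replicate 2. Its fold enrichment was 6.06 in MCF10A replicate 1, 6.96 in G12V replicate 1 and 14.2 in G12V replicate 2. The rank percentiles were 26.5, 15.8 and 75.7 in the same order. Only G12V replicate 2, the longest list, placed it above the middle, and the percentile of the other G12V library was below that of MCF10A replicate 1. These percentiles came from lists of unlike length, with rank 402 of 477 in G12V replicate 1 and 1263 of 1718 in MCF10A replicate 1. In lists cut to 477 peaks each the site was found in G12V replicate 1 alone.

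**Figure D2:**
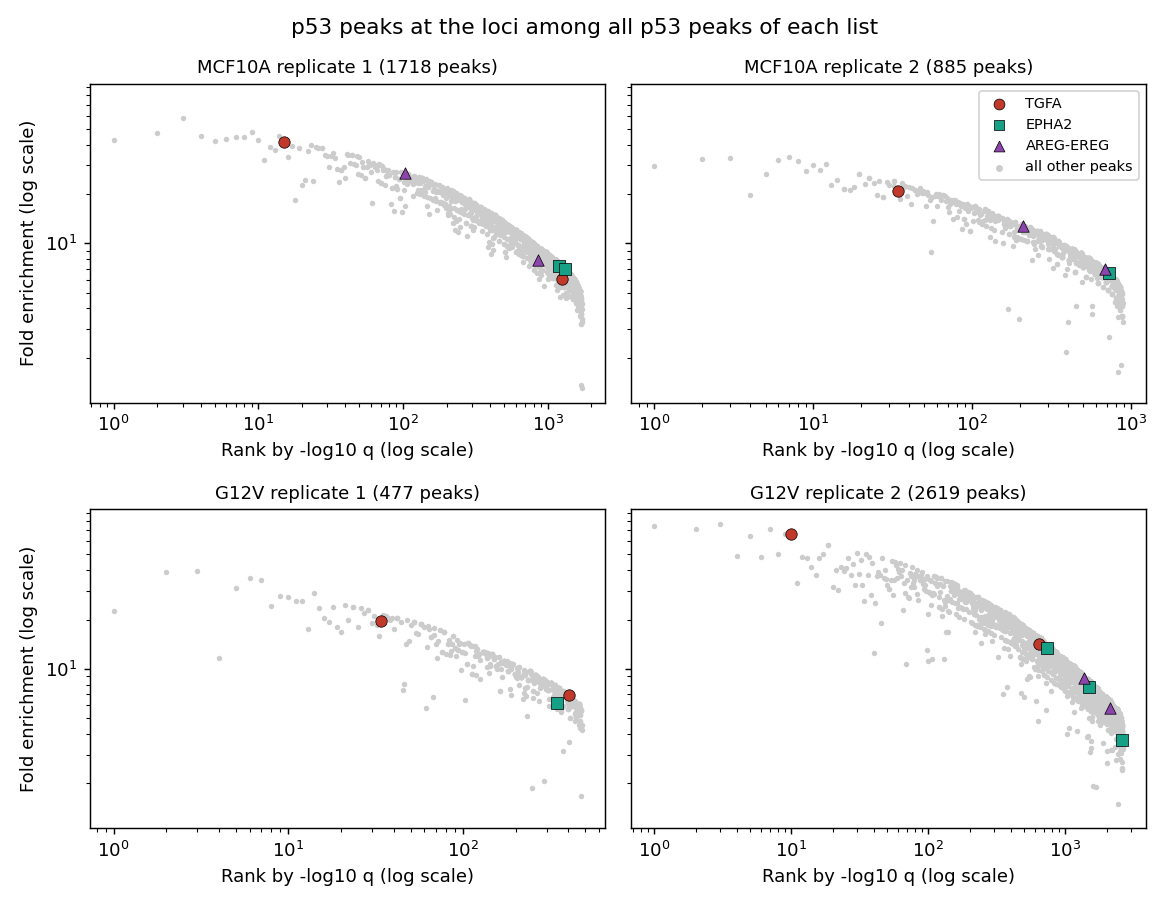
Fold enrichment (vertical, log scale) against rank by −log10 q (horizontal, log scale, 1 is the strongest) for all p53 peaks of each list, grey, with the peaks at TGFA, EPHA2 and between EREG and AREG in colour. The distal TGFA peak is at rank 10 to 34 in every list, and the stronger AREG-EREG peak, at rank 104 and 210 in MCF10A, has no peak in G12V replicate 1.

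AREG and EREG encode amphiregulin and epiregulin, EGFR ligands whose genes are neighbours on chromosome 4 and are transcribed in the same direction. Both p53 sites of this pair lay in the intergenic sequence between them, nearer to the body of EREG (24650 and 26961 bp) than to that of AREG (31322 and 29204 bp). The stronger site, chr4:75279116-75279531, was 31559 bp upstream of the AREG start site, the nearest start site of a protein-coding gene. Its fold enrichment was 26.8 and 12.7 in MCF10A replicates 1 and 2 and 8.75 in G12V replicate 2, with no peak in G12V replicate 1. The rank percentile was 94.0 and 76.4 in MCF10A against 47.9 in G12V replicate 2. Both MCF10A libraries were thus above the only G12V library with a peak, as at 23.0% of all p53 sites called in the same libraries.

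The gap between MCF10A and G12V replicate 2 is set beside other p53 sites for scale only. The G12V side rested on the deepest and the shallowest of the p53 libraries. The mean MCF10A rank percentile exceeded that of G12V replicate 2 by 37.3 points. Of the 751 p53 sites called in both MCF10A libraries and in G12V replicate 2, 25 (3.33%) had a gap at least as large, and the median gap was -9.16. A site with a mean MCF10A percentile below 37.3 cannot show such a gap, so this share describes and does not test. Of the 94 p53 sites that ranked at least as high in both MCF10A lists, 11 (11.7%) were missing from G12V replicate 1 and none from G12V replicate 2. With each p53 list cut to an equal length of 477 peaks, the strongest, the site was found in both MCF10A lists and in neither G12V list, as were 96 (11.3%) of the 849 p53 sites of those lists. The site was singled out after its values were seen, so no test was made of this difference.

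The summit of this site lay in a short tandem repeat and held no p53 motif, nor a half-site without mismatch. The 150 bp around the summit contained 15 copies of CCTTG. The median over the 2980 p53 sites was 0 copies, and this was the 1 site with as many. The sequence is shown because it differs from that of the other ligand sites, with the copies of CCTTG in capitals, followed by the second site of the pair with its p53 motif in capitals:
AREG-EREG, 31.6 kb upstream of AREG, chr4:75279219-75279368: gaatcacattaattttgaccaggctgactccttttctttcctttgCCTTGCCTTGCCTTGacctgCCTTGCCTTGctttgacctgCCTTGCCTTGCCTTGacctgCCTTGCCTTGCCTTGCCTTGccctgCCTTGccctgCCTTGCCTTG
AREG-EREG, 29.3 kb upstream of AREG, chr4:75281485-75281544: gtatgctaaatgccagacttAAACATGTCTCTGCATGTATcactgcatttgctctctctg

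The second site, chr4:75281427-75281649, was weaker and held a p53 motif with 3 mismatches at its summit. Its fold enrichment was 7.88 and 6.97 in MCF10A and 5.79 in G12V replicate 2, and it too had no peak in G12V replicate 1. The rank percentiles were 50.2, 23.0 and 19.0. Both MCF10A values were above the G12V value, that of MCF10A replicate 2 narrowly. Of the 751 p53 sites called in both MCF10A libraries and in G12V replicate 2, 173 (23.0%) had this order and 385 (51.3%) the reverse. At the loci, the 2 AREG-EREG sites had this order and 2 others, at TGFA and EPHA2, the reverse.

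No CTCF site was called within 50 kb of AREG, and the 2 CTCF sites near EREG were called in the second replicate of each cell type alone. One of them, chr4:75236600-75236942, was in an EREG intron 5882 bp into the gene, with a rank percentile of 68.6 in MCF10A replicate 2 and 37.6 in G12V replicate 2. AREG was the member least accessible to the method. In its gene body, 8.88% of the positions start a 60-base sequence (the CTCF read length) and 12.1% an 80-base sequence (the p53 read length) that occurs once in GRCh37, against at least 97.0% in each of the other genes. For the whole AREG window the shares were 64.1% and 65.1%. The authors kept uniquely aligned reads only, so most positions of the AREG gene body could not start a kept read in any library, and the count of 0 CTCF sites covers the rest of the window.

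**Figure D3:**
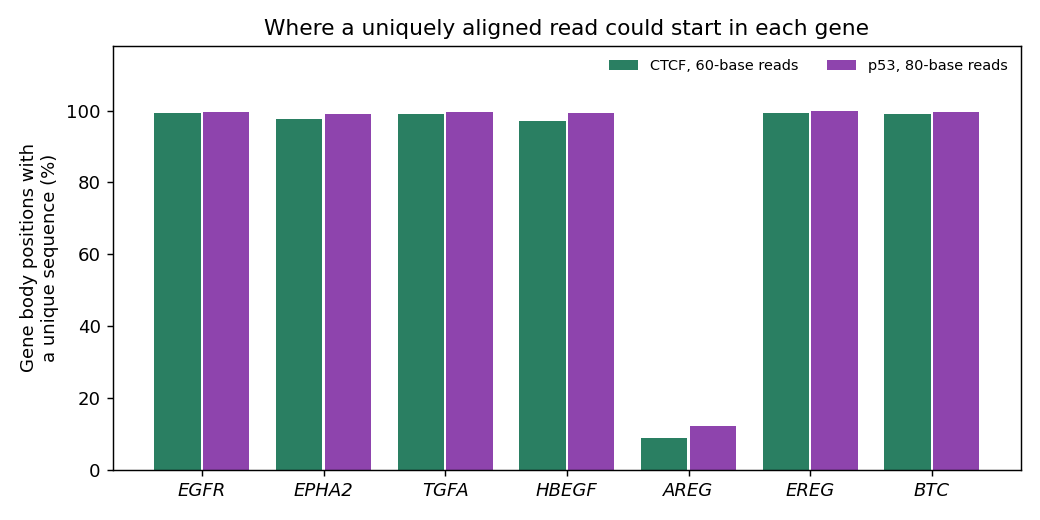
Percent of gene body positions (vertical axis, from 0) at which a sequence of the read length occurs once in GRCh37, for 60-base CTCF reads (green) and 80-base p53 reads (purple). AREG stands at 8.88% and 12.1%, and the other 6 genes at 97.0% or above.

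EPHA2 had 3 p53 sites, of which 1 was called in all 4 libraries. This site, chr1:16478695-16479531, was in an EPHA2 intron 3489 bp into the gene. The fold enrichment was 7.29 and 6.59 in the MCF10A libraries and 6.23 and 13.5 in the G12V libraries. The rank percentiles were 29.9 and 18.3 in MCF10A against 27.7 and 71.9 in G12V. The 2 cell types overlapped, with a mean difference of 25.7 points (exact permutation test, p = 0.667) that was 3.60 points without G12V replicate 2. The higher percentile of that library came with a longer list, its rank being 736.5 against 723 in MCF10A replicate 2, and in lists cut to 477 peaks each the site was found in G12V replicate 1 alone. Among peaks with a −log10 q of at least 5 the difference was 32.2 points (exact permutation test, p = 0.333). Both G12V libraries were then above both MCF10A libraries, as at 13.8% of all p53 sites of 4 libraries in that setting. No full p53 motif was found anywhere in the site, while a half-site without mismatch was present in the 150 bp around the summit.

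The other 2 EPHA2 sites were each missing from at least 2 libraries. A site 28753 bp upstream of the start site, chr1:16511113-16511455, had fold enrichments of 6.93 in MCF10A replicate 1 and 7.79 in G12V replicate 2, and held a motif with 3 mismatches. A site at the start site itself, 27 bp upstream, was found in G12V replicate 2 alone, with a fold of 3.68 and at rank percentile 0.363, the weakest of the p53 sites described here. The intron and upstream sequences are shown to set a site of all 4 libraries without a full motif beside a site of 2 libraries with one:
EPHA2, 3.5 kb into the gene, chr1:16479045-16479104: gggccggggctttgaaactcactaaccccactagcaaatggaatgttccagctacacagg
EPHA2, 28.8 kb upstream, chr1:16511270-16511329: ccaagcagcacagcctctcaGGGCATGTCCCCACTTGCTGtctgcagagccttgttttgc

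**Figure D4:**
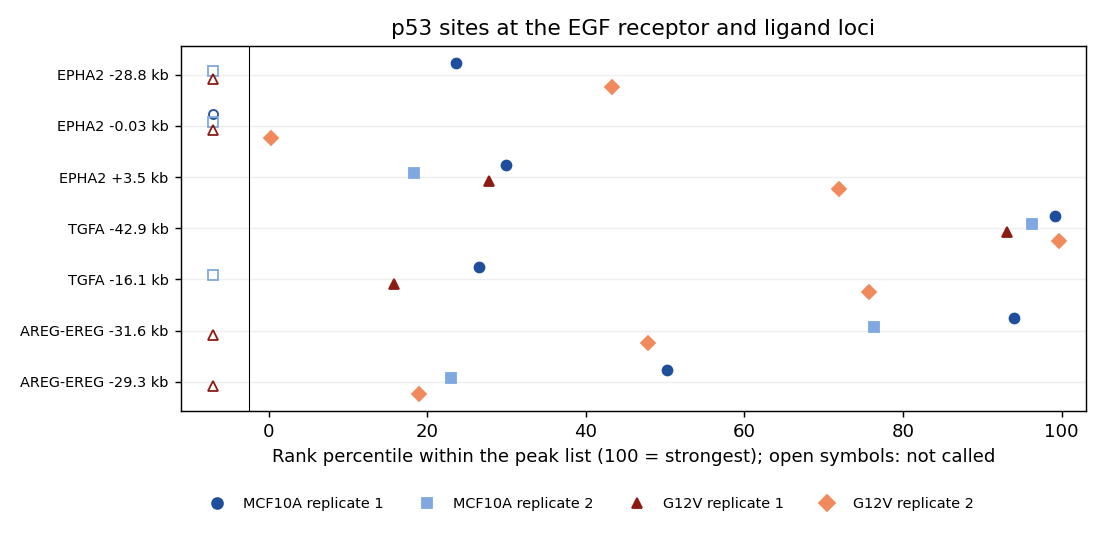
Rank percentile within its own list (horizontal, 100 is the strongest) of each of the 7 p53 sites in the 4 libraries, with sites named by gene and distance from the start site in kb (AREG for the AREG-EREG pair). Open symbols left of the line mark libraries without a peak. All 4 symbols of the distal TGFA site lie above 93, and both AREG-EREG sites lack G12V replicate 1.

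Across the 7 p53 sites, 4 held a full motif within 150 bp around the summit (57.1%, against 70.4% of the 2980 p53 sites and 0.973% of windows 2000 bp away). A half-site without mismatch was present in 5 of the 7, against 54.8% of all p53 sites. The AP-1 motif TGACTCA, read on both strands, was in none of the 7, against 6.71%. With 7 sites these shares are counts only, and were not tested.

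CTCF sites were found near 6 of the 7 genes, against 85.7% of protein-coding genes, and sites called in all 4 libraries near 5, against 51.8%. Of the 23 sites, 10 were called in all 4 libraries (27.5% of all CTCF sites) and 7 in 1 library (29.7%). A single site was specific for G12V (3.33% of all CTCF sites) and none for MCF10A (0.261%). Without G12V replicate 1 there were 6 G12V-specific sites of 22 (8360 of all 28855 CTCF sites), without MCF10A replicate 2 there were 3 of 22 (12.7% of all) and without G12V replicate 2 there were 2 of 18 (5.47%). Without MCF10A replicate 1 there was 1 MCF10A-specific site of 23 (3.64%). The CTCF motif was found in 15 of the 23 sites (65.2%), against 51.2% of every 4th CTCF site in the genome and 1.31% of windows 2000 bp away.

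At EGFR the CTCF sites of all 4 libraries lay beyond the 3′ end of the gene. Within the gene body, which spans 193 kb, there were 2 CTCF sites, both in introns and both from G12V replicate 2 alone, at rank percentiles 1.32 and 19.1. The nearest to the start site was 38036 bp into the gene, so no library had a CTCF or p53 peak at the EGFR promoter. The nearest p53 site to any CTCF site of this locus was 318444 bp away. Downstream of the gene, a pair of sites less than 1 kb apart, at chr7:55322521-55322963 and chr7:55323210-55323614, was called in all 4 libraries. The second of the pair had rank percentiles of 24.5 and 66.7 in MCF10A against 79.4 and 77.5 in G12V, and so both G12V libraries were above both MCF10A libraries. The first of the pair, with 50.8 and 41.5 in MCF10A against 30.7 and 56.6 in G12V, showed no such order. Each held a CTCF motif on the minus strand with 1 mismatch, 38 bp from the summit. The pair is shown on the plus strand, with the motif in capitals:
EGFR, first of the pair, chr7:55322682-55322741: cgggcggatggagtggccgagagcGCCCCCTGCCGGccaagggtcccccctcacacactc
EGFR, second of the pair, chr7:55323380-55323439: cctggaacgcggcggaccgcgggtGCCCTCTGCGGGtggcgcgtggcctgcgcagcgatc

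HBEGF, which encodes heparin-binding EGF-like growth factor, had the densest CTCF occupancy, with 7 sites (6.15 per 100 kb, against 0 to 3.80 at the other genes) and no p53 site. By the sum of its ranks over the 4 libraries the strongest was chr5:139742610-139743193, 16695 bp upstream of HBEGF in an intron of SLC4A9. Its rank percentiles were 53.7 and 92.8 in MCF10A against 96.1 and 97.5 in G12V. A site 409 bp into HBEGF, chr5:139725460-139726027, had rank percentiles of 62.6 and 35.2 in MCF10A against 80.1 and 90.4 in G12V, with fold enrichments of 6.90, 6.10, 7.55 and 16.4. At both sites the 2 cell types did not overlap and G12V was higher, whereas the sites 11.2 and 26.4 kb upstream, also called in all 4 libraries, overlapped. In both MCF10A libraries the site 11.2 kb upstream ranked higher than the one 16.7 kb upstream, at 70.3 and 97.8 (79.3 and 70.6 in G12V). The site nearest the HBEGF start, 190 bp upstream, was found in G12V replicate 1 alone, at rank percentile 29.2. The 2 sites that did not overlap are shown, with the CTCF motif (plus strand, 1 mismatch each) in capitals:
HBEGF, 16.7 kb upstream, chr5:139742911-139742970: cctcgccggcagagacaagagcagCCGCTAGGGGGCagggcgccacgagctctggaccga
HBEGF, 0.41 kb into the gene, chr5:139725740-139725799: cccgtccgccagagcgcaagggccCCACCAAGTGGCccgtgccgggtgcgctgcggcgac

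EPHA2 lay between CTCF sites on both sides. The strongest by rank sum, chr1:16514244-16514673, was 31870 bp upstream, with rank percentiles of 84.3 and 93.1 in MCF10A against 82.8 and 80.2 in G12V, and was the only one of the 10 CTCF sites of all 4 libraries at which both G12V libraries were below both MCF10A libraries. On the other side, a site of all 4 libraries lay 77010 bp downstream of the EPHA2 start, at chr1:16405338-16405771. The G12V-specific CTCF site, chr1:16531423-16531810, was in coding sequence of the neighbouring gene ARHGEF19, 49071 bp upstream of the EPHA2 start. Its fold enrichment was 6.02 and 9.33, at rank percentiles 13.4 and 33.1, so it was a weak peak in both G12V lists, and no CTCF motif was found at its summit. The CTCF site nearest the EPHA2 start, chr1:16481187-16481513, was in an EPHA2 intron 1246 bp into the gene. It was found in G12V replicate 2 alone, at rank percentile 13.6, and held no CTCF motif at its summit. The motif of the upstream site had no mismatch and was on the minus strand, and that of the downstream site had 1 and was on the plus strand. Both are printed as they stand on the plus strand:
EPHA2, 31.9 kb upstream, chr1:16514397-16514456: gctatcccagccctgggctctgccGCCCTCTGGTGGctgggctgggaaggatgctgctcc
EPHA2, 77.0 kb downstream, chr1:16405518-16405577: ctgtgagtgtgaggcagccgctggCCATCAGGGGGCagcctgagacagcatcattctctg

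TGFA and BTC, the gene for betacellulin, each had a CTCF site of all 4 libraries near the start site, and no CTCF motif was found at either summit. The TGFA site, chr2:70781205-70781626, was 106 bp upstream of the start site, with rank percentiles of 31.2 and 85.9 in MCF10A against 45.3 and 73.7 in G12V. The BTC site, chr4:75718879-75719311, was in an intron 689 bp into the gene, with 21.0 and 17.4 in MCF10A against 9.73 and 35.4 in G12V. At both, the MCF10A values lay between the G12V values or around them, so the cell types overlapped. The CTCF site nearest the BTC start, chr4:75719776-75720076, was another one, 212 bp upstream. It was found in G12V replicate 2 alone, at rank percentile 18.0, and held a CTCF motif with 1 mismatch.

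**Figure D5:**
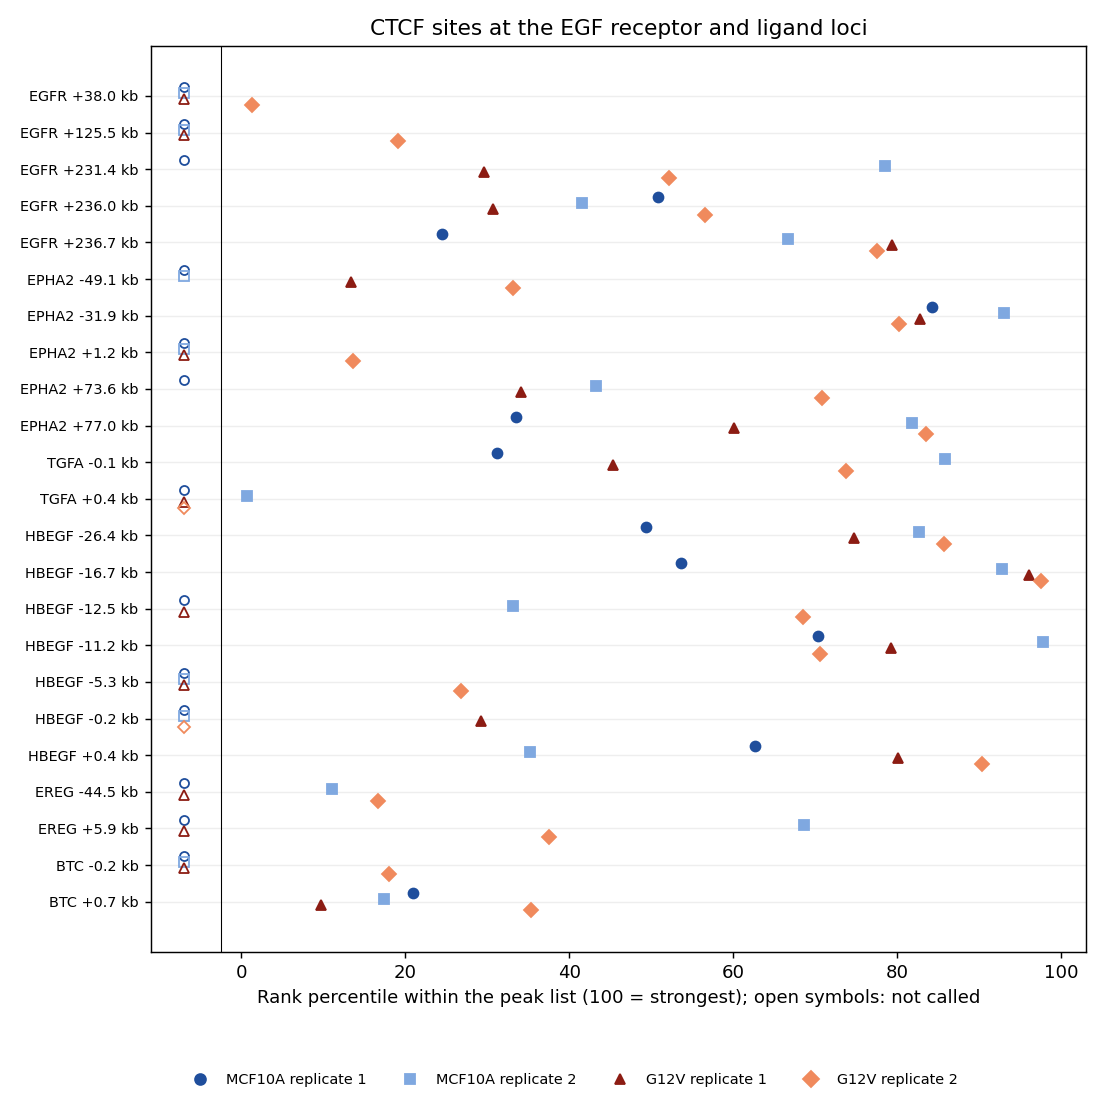
Rank percentile within its own list (horizontal, 100 is the strongest) of the 23 CTCF sites in the 4 libraries, with sites named by gene and distance from the start site in kb. Open symbols left of the line mark libraries without a peak. At 3 of the 10 sites of all 4 libraries (EGFR +236.7 kb, HBEGF -16.7 kb and HBEGF +0.4 kb) both G12V symbols lie right of both MCF10A symbols, and at EPHA2 -31.9 kb left of them.

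Among the 10 CTCF sites of all 4 libraries, both G12V libraries ranked above both MCF10A libraries at 3 (21.0% of all such CTCF sites) and below at 1 (9.48%). The 3 differences were 36.3, 32.8 and 23.6 points for HBEGF +0.4 kb, EGFR +236.7 kb and HBEGF -16.7 kb, and the difference at EPHA2 -31.9 kb was -7.18 points. Each reached p = 0.333 in the exact permutation test, the smallest that 2 libraries against 2 can give, and an adjusted p of 0.832 over the 10 sites (Benjamini-Hochberg), so none was shown to differ. Leaving out 1 library gave 22.6 to 50.0 points for HBEGF +0.4 kb, 11.7 to 54.0 for EGFR +236.7 kb, 4.02 to 43.1 for HBEGF -16.7 kb and -2.81 to -11.6 for EPHA2 -31.9 kb. The ends of each range came from leaving out MCF10A replicate 1 or MCF10A replicate 2. Averaged over the 10 sites, the MCF10A libraries had rank percentiles of 48.1 and 69.5 and the G12V libraries of 63.8 and 75.1. The means were 58.8 ± 15.1 for MCF10A against 69.5 ± 7.99 for G12V (SD, 2 libraries each, exact permutation test, p = 0.667). For p53 the 2 sites of all 4 libraries averaged 60.9 ± 5.14 and 73.1 ± 17.9 (SD, 2 libraries each, exact permutation test, p = 0.667). Over all sites of 4 libraries, the mean difference of G12V from MCF10A was 4.78 points for CTCF (8006 sites) and -1.19 for p53 (332 sites), against 10.7 and 12.2 at the loci. In lists of equal length it was 1.16 points over the 7 CTCF sites at the loci that were still in all 4 lists, without HBEGF +0.4 kb, against -0.042 over all such sites. In those lists both G12V libraries were above at 16.7% of all such CTCF sites and below at 16.2%. At the loci they were above at 2 of the 7 and below at 1. The CTCF difference turned to -2.39 points without MCF10A replicate 1, and the p53 one to -1.29 without G12V replicate 1 and to -0.529 without G12V replicate 2. Of the p53 sites of all 4 libraries in the genome, 12.7% had both G12V percentiles above and 14.2% below both MCF10A ones, and neither TGFA nor EPHA2 was among them.

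The number of peaks at the loci did not separate the cell types either. CTCF lists placed 10 and 16 peaks (MCF10A) and 14 and 21 peaks (G12V) at the loci, which were 0.0838 ± 0.0061% and 0.0963 ± 0.0288% of the list (SD, 2 libraries each, exact permutation test, p = 1). The p53 lists placed 6 and 4 peaks (MCF10A) and 3 and 7 peaks (G12V) there, or 0.401 ± 0.0726% and 0.448 ± 0.256% of the list (SD, 2 libraries each, exact permutation test, p = 1). Both differences were smaller than the spread between the G12V replicates. They changed sign without G12V replicate 1 (-0.0079% for CTCF and -0.133% for p53), and for p53 also without MCF10A replicate 1 (-0.0039%).

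No p53 site lay close to the edge of the 50 kb windows. The outermost p53 site inside was the distal TGFA site, 42212 bp from the gene body, and the nearest one outside was 91872 bp from BTC. For CTCF the outermost site inside was the G12V-specific one, 48859 bp from EPHA2, and the nearest outside was 50468 bp from the same gene.

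The 26 other genes of the pathway that were listed (further EGF-family ligands and ERBB receptors, sheddases and their cofactors, adaptors, inhibitors, ephrins and EPH receptors) gave a background of related loci. These genes were not all separate loci. EFNA1, EFNA3 and EFNA4 shared CTCF sites, as did SHC1 and EFNA4, and EPGN shared a CTCF site with EREG. A CTCF site lay within 50 kb of 24 of the 26 genes, called in all 4 libraries at 16, and G12V-specific at 2, against 85.7%, 51.8% and 7.9% of protein-coding genes. None had an MCF10A-specific CTCF site (0.776% of genes). NRG2 was named after its ranks were seen. There the CTCF site chr5:139223939-139224479 stood higher in both G12V lists. Its ranks were 1878 of 11346 and 5300.5 of 20136 in MCF10A against 486.5 of 12004 and 565 of 27678 in G12V. Ranks at chr5:139243549-139244077 were 1933.5 and 7344.5 against 380 and 1478. Those at chr5:139348269-139348799 went the other way, 15 and 82 against 1819 and 200. Of all CTCF sites of 4 libraries, 21.0% had both G12V rank percentiles above both MCF10A ones and 9.48% below. A p53 site lay near 9 of the 26 (18.9% of genes), and a p53 site of all 4 libraries near 1 (2.41%), NRG4, the gene for an ERBB4 ligand. The NRG4 site, chr15:76196102-76196809, had fold enrichments of 9.58 and 5.22 in MCF10A against 10.8 and 24.8 in G12V, at rank 812 of 1718, 835 of 885, 178 of 477 and 278 of 2619. The distal TGFA site ranked above it in each of the 4 lists. A G12V-specific p53 site was near SHC1, the gene for an adaptor of EGFR, with folds of 5.10 and 14.5 (0.453% of genes had such a site), and no MCF10A-specific p53 site was near any of the 26 (0.448%).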

How the data were processed

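CTCF and p53 ChIP-seq of MCF10A and G12V cells (2 libraries for each of 4 groups, grouped by sample title) was analysed from the peak lists. The authors aligned reads to hg19 with Bowtie, kept unique alignments and called peaks in each library against input with MACS2 at default settings (q of 5%). The deposited fold enrichment is the ratio of the pileup at the summit to the local background, and the deposited −log10 p and −log10 q are those at the summit. Calling depth was recovered from fold and p for a mappable genome of 2.7 Gb, and the recovery was tested on simulated data.

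Peaks were ranked within each list by −log10 q with ties averaged. Genes came from GENCODE release 44 lifted to GRCh37, where no peak passed a chromosome end. Motifs were searched on both strands in 150 bp centred on the summit of a site's strongest peak. The p53 motif was a pair of adjacent decamers (20 bp, core C and G intact, at most 3 mismatches elsewhere), the half-site 1 decamer of 10 bp without mismatch, and the CTCF motif its 12-bp core with at most 1 mismatch. Uniqueness was the share of 60-base or 80-base sequences found once in GRCh37 on either strand.

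Library values were compared by permuting the cell types exactly (two-sided, 6 assignments of 4 libraries, smallest p 0.333). Benjamini-Hochberg adjustment ran over the sites of a factor at the loci that were called in all 4 libraries. Sites named in the text were every p53 site and, per gene, the CTCF site of all 4 libraries with the smallest rank sum, the CTCF site nearest the start site and every cell-type-specific one. Of the other pathway genes, those with a p53 site of all 4 libraries were named. The first EGFR site of the pair, the EPHA2 site downstream, the further HBEGF sites and the NRG2 and SHC1 sites were added after their values were seen. The genes and lists were chosen with earlier results of these data known. Alternatives were window size, a −log10 q of at least 5, lists of equal length, merging by summits, leaving out each library and a replicate block. Python 3.11.15 with pandas 2.3.3, numpy 2.4.6, scipy 1.17.1 and pysam 0.24.0 was used. The inputs were not analysed here.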

Additional observations from a re-analysis of the deposited data

How the results depend on the processing

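None of the comparisons of peak shares and mean rank percentiles could pass a threshold of 0.05 with 2 libraries per group, so an unchanged p says nothing about stability. Their directions rested on single libraries. Without each library in turn the G12V minus MCF10A difference ranged from -0.0079 (without G12V replicate 1) to 0.0328% of the list for CTCF, and for p53 from -0.133 (without G12V replicate 1) to 0.228%, with -0.0039 without MCF10A replicate 1. The mean CTCF rank percentile differed by -2.39 (without MCF10A replicate 1) to 21.3 points, and the p53 one by -1.29 (without G12V replicate 1) to 15.8, with -0.529 without G12V replicate 2. Lists of equal length gave 1.16 points over 7 of the 10 CTCF sites and 0.525 at 1 of the 2 p53 sites. HBEGF +0.4 kb and the EPHA2 p53 site were among those no longer in all 4 lists.

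Small counts moved. Without each library in turn there were 0 to 1 MCF10A-specific and 1 to 6 G12V-specific CTCF sites (6 without G12V replicate 1), 0 to 2 MCF10A-specific and 0 to 1 G12V-specific p53 sites, and 2 to 4 p53 sites of all 4 libraries (4 without G12V replicate 1). Lists of equal length gave 1 MCF10A-specific p53 site of 4 (11.3% of all p53 sites in those lists) and 1 p53 site of all 4 libraries. Windows of 10 kb gave 0 G12V-specific CTCF sites, 3 CTCF and 1 p53 sites of all 4 libraries, and 1 of 3 CTCF sites with groups that did not overlap. Windows of 100 kb gave 2 G12V-specific CTCF sites of 41 (3.33% of all CTCF sites), and 7 of 15 CTCF sites that did not overlap, 5 with G12V above and 2 below (21.0% and 9.48% of all such sites).

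Single sites changed sign as follows. Leaving out 1 library gave ranges of -10.0 to 38.2 points for EPHA2 +77.0 kb, -26.4 to 28.4 for TGFA -0.11 kb (CTCF), -9.45 to 16.2 for BTC +0.69 kb, -22.9 to 4.60 for HBEGF -11.2 kb, -2.45 to 30.9 for HBEGF -26.4 kb, -15.5 to 10.4 for the first EGFR site and -4.66 to 1.93 for the distal TGFA p53 site. The EPHA2, TGFA promoter, HBEGF -26.4 kb, first EGFR and distal TGFA sites turned without MCF10A replicate 1 (the first EGFR and distal TGFA sites also without G12V replicate 1), TGFA -0.11 kb and BTC without G12V replicate 2, and HBEGF -11.2 kb without MCF10A replicate 2. In lists of equal length TGFA -0.11 kb moved to -14.1 and the distal TGFA p53 site to 0.525. The causes were not tested.

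The labels number the replicates alike in both cell types. The correlation of same-numbered deviations was 0.042 for CTCF and -0.051 for p53, so the numbers were not shown to pair libraries. With a replicate block, whose smallest p is 0.5, the differences were 0.0125% and 0.0475% of the list and 10.7 and 12.2 points, with p = 1, 1, 0.5 and 1 in exact permutation tests.

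Calling depths of 9.26 to 23.9 M reads (M is 1e6) in p53 limit what a missing peak can show.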
